A study of Mus musculus with 19 samples.

Results

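The expression of 10 genes of canonical Wnt signalling was described: Ctnnb1, the TCF/LEF genes Tcf7, Lef1, Tcf7l1 and Tcf7l2, and the target genes Axin2, Sp5, Lgr5, Cdx1 and Ascl2. They were taken as listed from both count tables, which hold 54352 gene symbols each, and all 10 have a row in both tables. All 7 groups were used, and Sp5 had 0 counts in the control group. The cells were TT2, a mouse embryonic stem cell line (CRL-1992 of the ATCC) that is kept on inactivated mouse embryonic fibroblasts as feeder cells. In 2D culture, 2 control libraries received no compound, and 2 libraries came from cells given 20 nM pladienolide B (PlaB) for 6 h, after 48 h of seeding. PlaB is a splicing inhibitor that targets the SF3b part of the spliceosome. In 3D microwells, blastoids, which are stem cell aggregates that model the blastocyst, were sampled with 3 libraries on each of days 1 to 5, and all 15 of these libraries carry the PlaB label as well. No blastoid group without PlaB is among the groups, and all 7 groups come from the same line. The feeder layer is part of the labelled culture, and the labels do not say how much of it remained in a library.

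In canonical Wnt signalling, secreted Wnt ligands bind Frizzled receptors with the co-receptors LRP5 and LRP6. This stops a destruction complex of Axin, APC and the kinases GSK3 and CK1 from marking β-catenin for degradation. β-Catenin then enters the nucleus and acts with TCF/LEF factors, which bind DNA and hold target genes off when β-catenin is absent. In mouse embryonic stem cells TCF7L1 acts mainly as a repressor of pluripotency genes, and stabilised β-catenin relieves this repression and supports self-renewal. The RNA levels reported here do not measure β-catenin protein or its activity.

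The 2D libraries held 2515381 to 4118725 counts and the blastoid libraries 3684787 to 7607021. Smart-seq2, the method used, copies whole cDNA molecules by PCR and adds no molecular identifiers. The labels do not state that replicates are separate cultures. A p-value therefore reflects only how far these samples lie from each other, and that distance may be technical. The stem cell markers Nanog and Sox2 had group means of 193 and 109 CPM on the joint scale of all 19 libraries in control cells, whereas Pou5f1, the gene of Oct4, had 4 counts in the control group and 81 in the PlaB group. Whether the Pou5f1 counts reflect its RNA level or how reads were mapped and counted was not tested. Mitochondrial genes took between 2.60% and 13.5% of the counts of a blastoid library, with the highest share in day 3 replicate 3. In 2D culture they took 5.74% and 6.18% in control and 9.14% and 9.38% after PlaB, against 2.60%, 2.81% and 4.92% on day 1. The part of this share in the differences between these groups was not tested. The balance between GC-rich and GC-poor genes also differed between groups. It was taken as the median log2 deviation of GC-rich genes minus that of GC-poor genes, from the mean of the libraries in the same table. The difference averaged -0.73 in control and 0.77 in PlaB libraries, and 1.01, 0.08, -1.01, 0.43 and -0.48 on days 1 to 5. Values after removal of each library's GC trend are therefore given for many of the results that they change. Some calls of the step from day 3 to day 4 also changed, and these are only counted in the last section. In these bulk libraries, fewer cells of a type and less RNA per cell cannot be told apart.

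CPM values below are TMM-scaled within the table, unless a joint scale is named. Fold changes are log2 values ± standard error (SE) from edgeR's quasi-likelihood test, with Benjamini-Hochberg adjustment over all genes tested and a threshold of 0.05. Reads of the opposite strand may be included, because the strand setting is not given in the sources used here. Gene models on the opposite strand overlap Axin2, Ctnnb1, Lef1, Lgr5, Tcf7 and Tcf7l1 in GENCODE M21, so the counts of these 6 genes are uncertain in that respect. No opposite-strand model overlaps Tcf7l2, Sp5, Cdx1 or Ascl2.

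**Figure D1:**
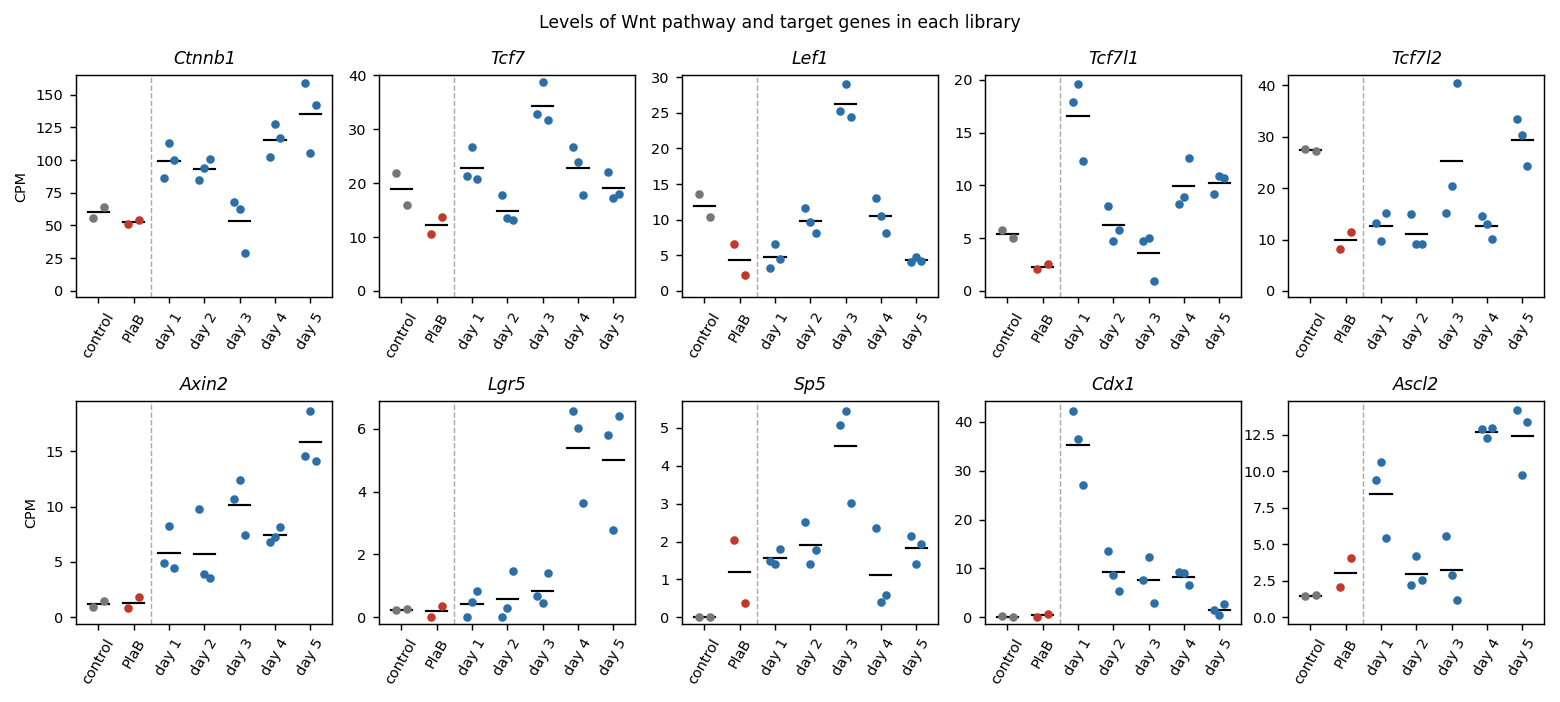
Level of each of the 10 genes in every library, in CPM scaled within its own table (vertical axes start just under 0 and differ between panels). Points are libraries, bars are group means, and the dashed line separates 2D culture (2 libraries per group) from blastoids (3 per day). Lef1, Tcf7 and Sp5 have their highest blastoid levels on day 3, Cdx1 on day 1, and Lgr5 on days 4 and 5.

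In 2D culture the TCF/LEF genes Tcf7l2 and Lef1 were lower after PlaB, and none of the 10 genes was called higher. Tcf7l2 (chromosome 19, 55741820 to 55933654, GRCm38), which encodes a TCF that can activate or repress, stood at 27.6 and 27.3 CPM in the control libraries and at 8.19 and 11.5 CPM after PlaB. Both PlaB libraries were thus below both controls, and Tcf7l2 fell by 1.47 ± 0.30 on the log2 scale (adjusted p = 0.000113). Lef1 (chromosome 3, 131110471 to 131224356), a mostly activating partner of β-catenin, stood at 13.6 and 10.4 CPM in control and at 6.55 and 2.22 CPM after PlaB. The libraries did not overlap, PlaB replicate 2 was the lowest, and the log2 fold change was -1.47 ± 0.46 (adjusted p = 0.00801). This call rested on 97 counts against 22. DESeq2 did not make it (adjusted p = 0.0682), and it ended without control replicate 1 (-1.29, adjusted p = 0.0989) and without PlaB replicate 2 (-0.85, adjusted p = 0.142), and the log2 fold change was -2.41 without PlaB replicate 1.

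The other genes of this group that could be tested did not pass. Tcf7 (chromosome 11, 52252371 to 52283014), the gene of TCF1, had 21.8 and 15.9 CPM in control and 10.6 and 13.7 CPM after PlaB, a log2 fold change of -0.63 ± 0.32 (adjusted p = 0.0966). Tcf7l1 (chromosome 6, 72626378 to 72789254), the repressive TCF of stem cells, had 5.82 and 5.05 CPM in control and 2.05 and 2.59 CPM after PlaB (-1.21 ± 0.62, adjusted p = 0.0982). Neither gene overlapped between the groups, which with 2 libraries in each can also occur without a change. After GC correction both passed, Tcf7 at -1.02 (adjusted p = 0.00896) and Tcf7l1 at -2.48 (adjusted p = 0.00111). Ctnnb1 (chromosome 9, 120929216 to 120960507), which encodes β-catenin, had 55.5 and 64.4 CPM in control and 51.19 and 53.996 CPM after PlaB. Its libraries did not overlap either, but the difference was small against its error (-0.19 ± 0.19, adjusted p = 0.419). With 14 introns in its longest coding transcript, Ctnnb1 has more than Tcf7l2 (13), Lef1 (11), Tcf7l1 (11) and Tcf7 (9). The part of intron number in the changes after PlaB was not tested.

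The target genes were near the limit of detection in 2D culture and were left out of the test by the low-count filter. Axin2 (chromosome 11, 108920349 to 108950783), a scaffold of the destruction complex that Wnt signalling induces as a feedback inhibitor, had 10 counts in the control group and 7 in the PlaB group. Lgr5 (chromosome 10, 115450311 to 115587780), a receptor for R-spondins, had 2 and 1 counts, and the caudal homeobox gene Cdx1 (chromosome 18, 61018862 to 61036199) had 1 and 2. Ascl2 (chromosome 7, 142966829 to 142969264), a basic helix-loop-helix factor of trophoblast and of intestinal stem cells, had 12 and 16 counts. Sp5 (chromosome 2, 70474923 to 70477729), a zinc finger factor and direct Wnt target, had 0 counts in control and 6 after PlaB, with a lower 95% counting limit of 1.85 for the ratio. Of these 6 counts 5 were in PlaB replicate 1. With no low-count filter, none of these 5 genes passed edgeR's test (adjusted p from 0.170 for Sp5 to 0.968 for Axin2).

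Of the 10 genes, 5 were tested in 2D, 0 were higher and 2 were lower, with a median log2 fold change of -1.21 against 0.00142 over all 11183 genes tested. At an unadjusted p under 0.05 the counts were also 0 higher and 2 lower, and DESeq2 called 0 higher and 1 lower. Of all genes tested 51.7% were called, 25.9% higher and 25.8% lower, so 2 lower of 5 is a small count over a large background. Fibroblast markers moved with the treatment as well: the summed joint CPM of 20 feeder markers was 2670 to 3354 in control and 5432 to 6955 in PlaB libraries, and 14 of the 18 tested were higher and 1 was lower. The only feeder marker at 0 in control libraries was S100a4, and none was at 0 after PlaB. Stem cell markers summed to 21267 to 23307 CPM in control and 15512 to 15784 CPM after PlaB. Of these 12 markers 3 were called higher and 4 lower, and 5 did not pass, with a median log2 fold change of 0.09. The part of the feeder cells, and of the GC balance, in the lower Tcf7l2 and Lef1 levels was not tested, beyond the GC correction, which left Tcf7l2 at -1.30 (adjusted p = 0.000638) and Lef1 at -1.73 (adjusted p = 0.00254).

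**Figure D2:**
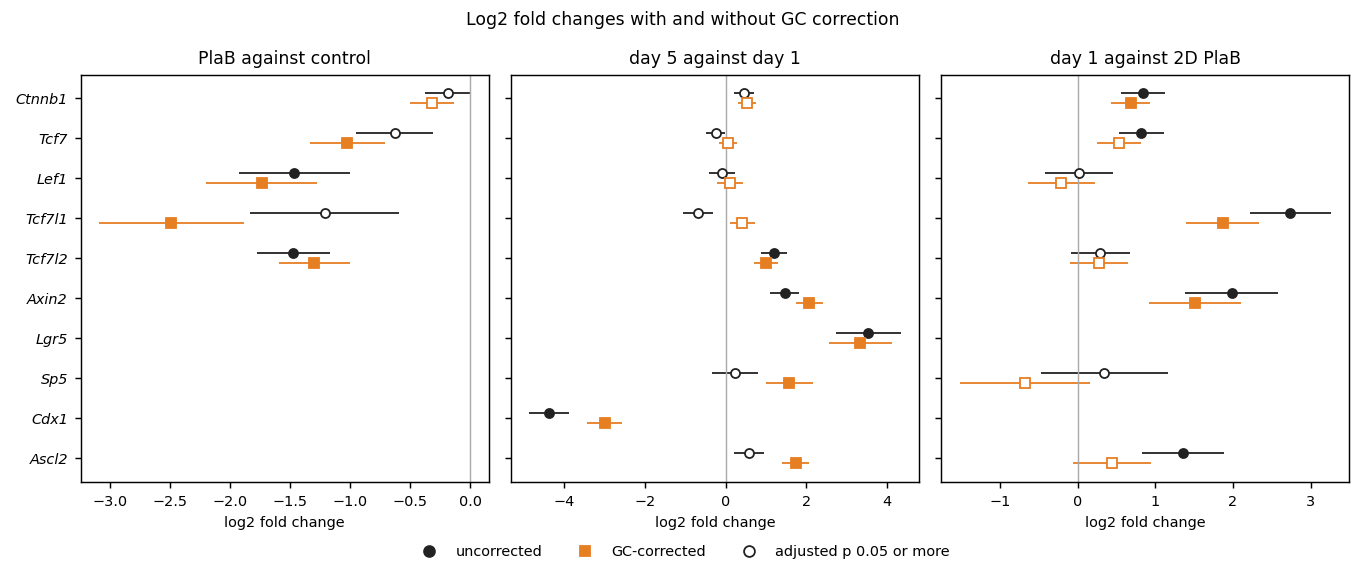
Log2 fold changes of the genes in 3 comparisons (horizontal axes), with bars of 1 SE, before (black circles) and after (orange squares) removal of each library's GC trend. Open symbols have an adjusted p of 0.05 or more, and genes with 3 counts or fewer in a group, or below the low-count filter, are left out. After PlaB, Tcf7l2 and Lef1 are lower in both settings, and Tcf7 and Tcf7l1 are called only after GC correction.

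Around these genes, other genes of the pathway were counted in the same comparison, in which 25.9% of all genes tested were called higher and 25.8% lower. Of 23 receptor and R-spondin genes 11 could be tested, and 0 rose and 4 fell (0 and 5 at an unadjusted p under 0.05, 0 and 1 with DESeq2; median log2 fold change -0.10). Lgr4, an R-spondin receptor related to Lgr5, fell by 0.98 ± 0.25, from a mean of 39.7 to 20.1 CPM (adjusted p = 0.00112). Lgr6 (-1.14 ± 0.40), the Frizzled gene Fzd6 (-2.05 ± 0.73) and Znrf3 (-1.10 ± 0.46), a ubiquitin ligase that clears Frizzled receptors, fell too. With DESeq2 the calls of Lgr6 (adjusted p = 0.0977), Fzd6 (0.107) and Znrf3 (0.178) ended, and each also ended without at least 1 of the 4 libraries.

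In the destruction complex and its regulators, 1 of 12 tested genes rose and 2 fell (median -0.06), beside 25.9% of all genes higher and 25.8% lower. The scaffold gene Apc fell from 81.0 to 24.4 CPM, or by 1.73 ± 0.21 (adjusted p = 1.4e-08), and the kinase gene Csnk1d rose by 2.04 ± 0.29 (1.38 after GC correction). Dvl3, a Dishevelled gene that relays the receptor signal, fell by 1.12 ± 0.33, a call that ended without control replicate 1 (adjusted p = 0.0659) and without PlaB replicate 1 (0.0509). Of 13 tested nuclear cofactors 3 rose and 2 fell (median -0.09), with the co-repressor gene Ctbp2 at -1.31 ± 0.17 (-2.10 after GC correction), the acetyltransferase gene Crebbp at -0.87 ± 0.20 and the deacetylase gene Hdac1 at 1.01 ± 0.15. Cby1, whose product binds β-catenin and inhibits it, was at 1.76 ± 0.39 (adjusted p = 0.000264), but at 0.90 after GC correction (adjusted p = 0.0582).

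Other Wnt targets and the genes that TCF7L1 represses moved in both directions, where 25.9% of all genes were called higher and 25.8% lower. Of 13 further targets 4 were tested. The cyclin gene Ccnd1 (1.64 ± 0.25, adjusted p = 1.1e-06) and Myc (1.31 ± 0.26, adjusted p = 6.05e-05) rose, both also driven by other pathways. Sox9 fell from 46 counts to 2, a ratio of 14.6 with a 95% counting interval of 3.83 to 124, and its call ended without control replicate 2 (adjusted p = 0.137). Of 9 pluripotency genes listed as repressed by TCF7L1, 2 rose and 3 fell (median 0.17): Tcl1 rose by 1.87 ± 0.21, Esrrb fell by 1.64 ± 0.26 (-2.40 after GC correction), and Prdm14 fell from 82 counts to 3, a ratio of 17.4 (5.75 to 86.1). Nr0b1 was at 1.21 ± 0.19, and at 0.41 after GC correction (adjusted p = 0.072). Counting intervals here and below cover counting error only, because PCR copies are not independent molecules.

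Few ligands and secreted inhibitors were abundant enough in 2D for the test, in which 25.9% of all genes were called higher and 25.8% lower. Among 21 ligand and secretion genes 4 were tested: Wnt5a was called lower (-0.43 ± 0.16, adjusted p = 0.0231) and Wls, the carrier of Wnt proteins to the cell surface, was called higher (0.42 ± 0.17, adjusted p = 0.037). Both calls ended with DESeq2 (adjusted p = 0.0881 and 0.124) and without PlaB replicate 2 (0.185 and 0.591), that of Wnt5a also with GC correction (-0.21, adjusted p = 0.28). Of 13 secreted inhibitors 4 were tested, and Dkk3 was called higher (0.68 ± 0.24, adjusted p = 0.0159), which ended with DESeq2 (0.0784) and with GC correction (0.0986). Among 7 tested genes of the cadherin junction, where β-catenin is also bound, 1 rose and 3 fell (median 0.04), with Vcl at 0.93 ± 0.18, Cdh1, the gene of E-cadherin, at -0.67 ± 0.18 and Ctnnd1 at -0.79 ± 0.24. The Cdh1 call ended without control replicate 1 (-0.44, adjusted p = 0.139), and that of Ctnnd1 with DESeq2 (adjusted p = 0.0507) and without PlaB replicate 1 (0.0751).

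Across the blastoid days all 10 genes were tested and all 10 differed among days 1 to 5, where 68% of the 15121 genes tested did. The call of Sp5 (adjusted p = 0.0173) ended without day 3 replicate 1 (0.0703) or day 3 replicate 2 (0.107), and the adjusted p of the other genes lay between 6.66e-07 for Lef1 and 0.00351 for Axin2. Between day 1 and day 5, 3 genes were higher (Axin2, Lgr5 and Tcf7l2) and 1 was lower (Cdx1), against 25.5% of all genes in each direction and 51% in all. The median log2 fold change of the 10 genes was 0.33, against -0.02 over all genes tested. Under scaling by total counts alone the median of all genes moved by -0.34, and the share of calls that were higher fell from 50.1% to 33.8%. In that setting Tcf7l1 (-1.03, adjusted p = 0.0239) and Tcf7 (-0.59, adjusted p = 0.0448) were called lower as well. After GC correction 5 genes were higher, with Ascl2 (1.73, adjusted p = 0.000347) and Sp5 (1.57, adjusted p = 0.0301) in addition.

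Changes between neighbouring days were spread over the course. From day 1 to day 2, 1 of the 10 genes rose and 3 fell, against 1.69% and 5.27% of all genes (6.96% called). From day 2 to day 3, 3 rose and 1 fell, against 12% and 13.5% (25.6% called). From day 3 to day 4, 4 rose and 3 fell, against 15.6% and 12.3% (27.9% called), and from day 4 to day 5, 2 rose and 2 fell, against 14.1% and 14.5% (28.6% called). These counts are of 10 genes, and neighbouring steps share the libraries of the day between them. With total-count scaling the share of calls that were higher went from 24.2% to 10.2% in the first of these steps, from 55.9% to 68.9% in the step to day 4 and from 49.4% to 31.2% in the last, with shifts of the median of all genes of -0.19, 0.14 and -0.21.

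Lef1 went up from day 1 to a peak on day 3 and down again to day 5. It stood at 3.25, 6.60 and 4.43 CPM in the day 1 libraries, at 11.6, 9.69 and 8.18 CPM on day 2 and at 25.3, 29.0 and 24.4 CPM on day 3. All day 3 libraries lay above every other library of the course. On day 4 it stood at 13.12, 10.52 and 8.13 CPM and on day 5 at 4.08, 4.74 and 4.27 CPM, within the range of day 1. The log2 fold change was 1.08 ± 0.29 to day 2 (adjusted p = 0.0273), 1.42 ± 0.27 to day 3 (adjusted p = 0.00155), -1.31 ± 0.27 to day 4 (adjusted p = 0.00137) and -1.28 ± 0.30 to day 5 (adjusted p = 0.00331). The first of these calls ended with total-count scaling (0.89, adjusted p = 0.065), with no low-count filter (adjusted p = 0.0598) and without any 1 of day 1 replicates 1 and 3 and day 2 replicates 1 and 2 (adjusted p from 0.0592 to 0.195). Between day 5 and day 1 the difference was -0.09 ± 0.32 (adjusted p = 0.833), or 0.11 after GC correction.

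Tcf7 also had its highest levels on day 3, but not the rise of Lef1 from day 1 to day 2. Its levels were 21.2, 26.6 and 20.8 CPM on day 1, 17.8, 13.5 and 13.2 CPM on day 2, and 32.7, 38.7 and 31.6 CPM on day 3, so day 3 again lay above every other library. All day 2 libraries lay below day 1, a step that did not pass (adjusted p = 0.105). From day 2 to day 3 it rose by 1.21 ± 0.23 (adjusted p = 0.00144). The day 4 libraries, at 26.8, 23.9 and 17.9 CPM, lay below day 3, but the step missed the threshold (-0.59 ± 0.22, adjusted p = 0.053). It passed with DESeq2 (-0.65, adjusted p = 0.0187), with GC correction (-0.96, adjusted p = 0.00487) and with RLE size factors (-0.65, adjusted p = 0.0345). On day 5 the libraries had 22.1, 17.29 and 18.047 CPM, and the log2 fold change against day 1 was -0.25 ± 0.23 (adjusted p = 0.378).

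Tcf7l1, the repressive TCF, had its lowest mean on day 3, when Lef1 and Tcf7 had their highest. It stood at 17.9, 19.6 and 12.3 CPM on day 1, 8.07, 4.78 and 5.80 CPM on day 2 and 4.75, 4.99 and 0.93 CPM on day 3, with the lowest value in day 3 replicate 3. On days 4 and 5 it was back at 8.26 to 12.6 CPM and 9.23 to 10.9 CPM, above all day 3 libraries and, apart from 1 day 4 library, below all day 1 libraries. It fell by 1.41 ± 0.37 from day 1 to day 2 (adjusted p = 0.022) and rose by 1.42 ± 0.39 from day 3 to day 4 (adjusted p = 0.0104). After GC correction neither step passed (-0.59, adjusted p = 0.334, and 0.46, adjusted p = 0.372), and the difference between day 5 and day 1 went from -0.69 ± 0.36 (adjusted p = 0.117) to 0.41 (adjusted p = 0.278). The step to day 2 also ended without any 1 of day 1 replicates 1 and 2 and day 2 replicates 2 and 3 (adjusted p from 0.0877 to 0.111), and the step to day 4 without day 4 replicate 3 (adjusted p = 0.0581).

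Tcf7l2 was high on day 5 and, in a single library, on day 3. It had 13.2, 9.67 and 15.1 CPM on day 1, 14.96, 9.13 and 9.22 CPM on day 2, and 15.1, 20.4 and 40.5 CPM on day 3. The highest of these is day 3 replicate 3, the library with the largest mitochondrial share and the lowest GC balance (-1.56). On day 4 Tcf7l2 stood at 14.56, 13.11 and 10.02 CPM and on day 5 at 33.5, 30.4 and 24.3 CPM, above all libraries of days 1, 2 and 4. It rose by 1.199 ± 0.32 from day 1 to day 5 (adjusted p = 0.00386) and by 1.22 ± 0.32 from day 4 to day 5 (adjusted p = 0.00702). The steps into and out of day 3 (1.18 ± 0.32, adjusted p = 0.0113, and -0.996 ± 0.32, adjusted p = 0.0238) ended without day 3 replicate 3 (0.69, adjusted p = 0.0964, and -0.50, adjusted p = 0.208).

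**Figure D3:**
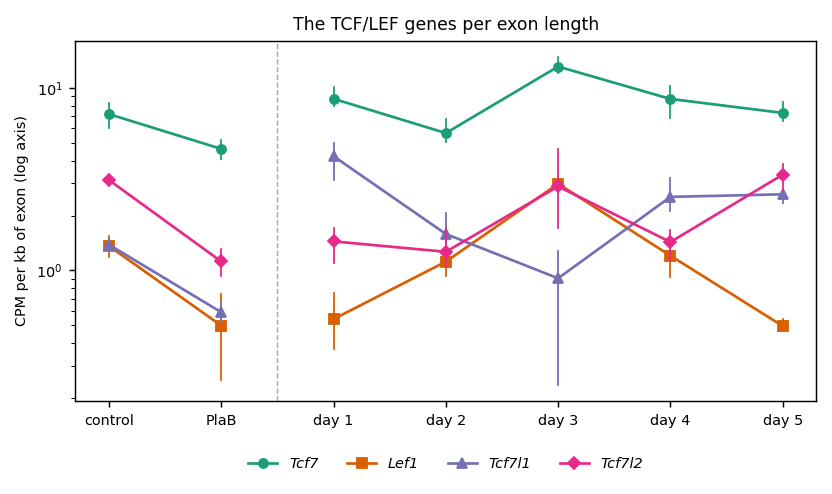
Mean level of the 4 TCF/LEF genes in each group, in CPM per kb of all annotated exons (log axis), with bars from the lowest to the highest library. Tcf7 has the highest mean in all 7 groups on this scale, though not per kb of transcript on day 5, Lef1 and Tcf7l1 run in opposite directions from day 1 to day 4, and the dashed line separates the 2 tables.

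Levels of the 4 TCF/LEF genes per kb depend on the length used. Per kb of all annotated exons, Tcf7 had the highest mean in every group: on day 3 it was 13.1 CPM per kb, against 2.99 for Lef1, 2.89 for Tcf7l2 and 0.906 for Tcf7l1. Tcf7l1 was second on day 1 (4.23 CPM per kb) and last on day 3, and Lef1 was last on days 1, 2, 4 and 5 (0.542, 1.12, 1.205 and 0.496). Per kb of the longest coding transcript, a length chosen after seeing the data, Tcf7l2 (7.91) and Tcf7 (7.75) overlapped on day 5, and so did Tcf7 (7.63) and Tcf7l2 (7.39) in control cells. Tcf7 kept the highest mean in the other 5 groups on that scale. In control cells Lef1 and Tcf7l1 overlapped per kb of exon (1.36 and 1.38), whereas per kb of transcript Lef1 (3.44) lay above Tcf7l1 (1.79). The place of Tcf7l1 as second on day 1 and last on day 3 was the same on both scales. Over the 15 blastoid libraries the Pearson correlation of log2 CPM was 0.595 between Lef1 and Tcf7 and -0.733 between Lef1 and Tcf7l1. These points share days in sets of 3 as well as the GC balance of each library, and the values describe these libraries only.

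Among the blastoid days, Ctnnb1 was lowest on day 3. It stood at 86.4, 113 and 99.7 CPM on day 1, 84.7, 94.0 and 101 CPM on day 2 and 68.2, 62.4 and 29.1 CPM on day 3. All day 3 libraries lay below every other library, with replicate 3 lowest. On day 4 it had 102, 128 and 117 CPM and on day 5 159, 105 and 142 CPM, a rise of 1.11 ± 0.25 from day 3 to day 4 (adjusted p = 0.0033). The step down to day 3 was -0.80 ± 0.25 (adjusted p = 0.0253), and ended without day 3 replicate 3 (-0.51, adjusted p = 0.0853) and without day 2 replicate 2 (adjusted p = 0.0704) or day 2 replicate 3 (0.0911). Against day 1, day 5 differed by 0.45 ± 0.25 (adjusted p = 0.144), and this passed without day 3 replicate 3 (0.45, adjusted p = 0.0373).

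Axin2, the feedback target, was highest on day 5. Its libraries had 4.87, 8.25 and 4.43 CPM on day 1, 9.75, 3.93 and 3.57 CPM on day 2 and 10.7, 12.4 and 7.44 CPM on day 3, and these 3 days overlapped. On day 4 they had 6.82, 7.24 and 8.13 CPM and on day 5 14.6, 18.7 and 14.2 CPM, all above every earlier library. Axin2 rose by 1.46 ± 0.36 from day 1 to day 5 (adjusted p = 0.00215; 2.08 after GC correction). The step from day 4 to day 5 (1.09 ± 0.35, adjusted p = 0.0238) ended with total-count scaling (0.87, adjusted p = 0.0748), with no filter (0.91, adjusted p = 0.0695) and without any 1 of the day 4 libraries or day 5 replicate 2 (adjusted p from 0.0569 to 0.0928). The step from day 2 to day 3 missed the threshold (0.84 ± 0.36, adjusted p = 0.0872) and passed after GC correction (1.31, adjusted p = 0.0113) and without day 2 replicate 1 (1.43, adjusted p = 0.00903). From day 3 to day 4 the value was -0.47 ± 0.35 (adjusted p = 0.325), with no GC-corrected value given.

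Sp5 was a low gene with its highest levels on day 3. It stood at 1.499, 1.41 and 1.80 CPM on day 1, 2.52, 1.40 and 1.79 CPM on day 2, 5.09, 5.44 and 3.02 CPM on day 3, 2.36, 0.41 and 0.58 CPM on day 4 and 2.15, 1.39 and 1.94 CPM on day 5. The 3 libraries of day 3 lay above all others, on 79 counts in all. From day 2 to day 3 the log2 fold change was 1.26 ± 0.52 (adjusted p = 0.0773; 1.83 and adjusted p = 0.0177 after GC correction), and the step passed without day 4 replicate 1 (1.25, adjusted p = 0.0416). From day 3 to day 4 Sp5 fell by 1.99 ± 0.54 (adjusted p = 0.00971; -3.10 after GC correction), and this call was lost without day 4 replicate 2 (-1.60, adjusted p = 0.0533) or replicate 3 (-1.69, adjusted p = 0.057), and the value was -3.16 without replicate 1. Against day 1, day 5 differed by 0.22 ± 0.57 (adjusted p = 0.769), with the opposite sign under total-count scaling (-0.11).

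The DNA upstream of Sp5, Axin2 and Lef1 is shown because Sp5 and Lef1 peak on the same day and Axin2 on another, and because TCF/LEF factors read a short motif. The stretches are the 250 bases before the RefSeq start on GRCm38.p6, all on the plus strand and printed from 5′ to 3′: chr2:70474673-70474922 for Sp5, chr11:108920099-108920348 for Axin2 and chr3:131110047-131110296 for Lef1. Capitals mark the motifs searched on either strand, namely CTTTGAA and, with another ending, CTTTGAT or CTTTGTA or else CTTTGTT. The motifs cannot overlap each other on 1 strand and can share up to 2 bases across strands.
Sp5: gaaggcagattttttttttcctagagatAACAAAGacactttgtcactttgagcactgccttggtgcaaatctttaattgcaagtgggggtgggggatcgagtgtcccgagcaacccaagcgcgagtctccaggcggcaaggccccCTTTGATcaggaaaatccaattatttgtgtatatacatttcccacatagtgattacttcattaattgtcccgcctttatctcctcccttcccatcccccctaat
Axin2: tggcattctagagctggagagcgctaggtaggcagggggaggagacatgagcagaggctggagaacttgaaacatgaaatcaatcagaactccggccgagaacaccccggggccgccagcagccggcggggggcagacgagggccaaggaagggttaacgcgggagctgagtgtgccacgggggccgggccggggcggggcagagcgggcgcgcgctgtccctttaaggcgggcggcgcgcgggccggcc
Lef1: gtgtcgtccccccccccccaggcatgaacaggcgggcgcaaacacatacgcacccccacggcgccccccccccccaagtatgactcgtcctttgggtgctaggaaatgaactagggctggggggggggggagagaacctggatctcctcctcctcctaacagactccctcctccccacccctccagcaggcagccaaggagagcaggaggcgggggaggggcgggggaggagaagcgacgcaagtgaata
In windows from 250 bases before to 50 bases after a start, 16.9% of 32851 mouse promoters held at least 1 of these motifs and 1.94% held 2 or more. Sp5 held 2, AACAAAG (the reverse complement of CTTTGTT) 222 bases before the start and CTTTGAT 104 bases before it. The windows of Axin2 and those at the first starts of Lef1 held none. RefSeq promoter windows were matched for 8 of the 10 genes, 14 windows in all, and 3 of these held a motif: that of Sp5, 1 at an internal start of Lef1 (TACAAAG) and 1 at an internal start of Tcf7l2 (CTTTGTT). A match is a description of the sequence, and a window without one says only that these letters are not in it. The GC content of the stretches shown was 46.0% for Sp5, 69.2% for Axin2 and 66.4% for Lef1.

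Lgr5 appeared late. Its libraries had 0, 0.47 and 0.83 CPM on day 1, 0, 0.28 and 1.49 CPM on day 2 and 0.68, 0.45 and 1.40 CPM on day 3, at most 13 counts per day in all. On day 4 they had 6.56, 6.01 and 3.63 CPM (119 counts) and on day 5 5.79, 2.79 and 6.404 CPM (70 counts), all above every library of days 1 to 3. Lgr5 rose by 2.73 ± 0.74 from day 3 to day 4 (adjusted p = 0.0098) and was 3.53 ± 0.80 higher on day 5 than on day 1 (adjusted p = 0.00111). The latter rested on 8 counts on day 1 and ranged from 2.81 without day 1 replicate 1 to 4.67 without day 1 replicate 3.

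Cdx1 ran the other way. It had 42.2, 36.6 and 27.0 CPM on day 1, 13.6, 8.57 and 5.36 CPM on day 2, 7.63, 12.4 and 3.02 CPM on day 3, 9.18, 9.01 and 6.68 CPM on day 4 and 1.502, 0.56 and 2.72 CPM on day 5. Day 1 lay above and day 5 below all other libraries, and days 2 to 4 overlapped. From day 3 to day 4 the value was 0.08 ± 0.41 (adjusted p = 0.904), with no GC-corrected value given. Cdx1 fell by 4.38 ± 0.49 from day 1 to day 5 (adjusted p = 7.7e-07; -3.00 after GC correction and -5.00 without day 5 replicate 3). The step from day 1 to day 2 was -1.95 ± 0.40 (adjusted p = 0.00446; after GC correction -0.82, no longer called, adjusted p = 0.185), and the step from day 4 to day 5 was -2.29 ± 0.50 (adjusted p = 0.00219; -1.51 after GC correction and -2.93 without day 5 replicate 3).

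Ascl2 had a trough on days 2 and 3. It stood at 9.37, 10.6 and 5.398 CPM on day 1, 2.19, 4.21 and 2.53 CPM on day 2, 5.59, 2.87 and 1.16 CPM on day 3, 12.9, 12.3 and 12.9 CPM on day 4 and 14.2, 9.76 and 13.4 CPM on day 5. It fell by 1.48 ± 0.40 to day 2 (adjusted p = 0.0296) and rose by 1.94 ± 0.40 from day 3 to day 4 (adjusted p = 0.00148; 2.58 without day 3 replicate 1). Neither step passed after GC correction (-0.59, adjusted p = 0.434, and 0.97, adjusted p = 0.069). The fall to day 2 also ended without any 1 of day 1 replicates 1 and 2 and day 2 replicates 1 and 3 (adjusted p from 0.113 to 0.142). Day 5 and day 1 overlapped, and their difference was 0.57 ± 0.37 (adjusted p = 0.208).

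Markers of blastocyst cell types moved over the same days. The summed joint CPM of 14 trophectoderm markers was 335 to 513 on day 1, 101 to 184 on day 2, 63.4 to 103 on day 3, 1015 to 1111 on day 4 and 1234 to 2295 on day 5, so that it was low when Ascl2 was low and high when Lgr5 and Ascl2 were high. From day 1 to day 5, 9 of the 12 tested were higher and 0 lower, where 25.5% of all genes were called in each direction. Cdx2, which defines the lineage, had 16, 0, 5, 21 and 1 counts on days 1 to 5, whereas Gata3 reached a mean of 30.7 and Krt8 one of 338 joint CPM on day 5. Feeder markers summed to 507 to 888 joint CPM on day 1 and to 60.6 to 77.0 on day 5, with 15 of 18 lower. In every blastoid group S100a4 and Tagln were at 0. The 11 mesendoderm markers summed to between 3.14 and 18.9 joint CPM in all blastoid libraries, highest on day 3, when T, a Wnt target and marker of the primitive streak, had 116 counts against 9 to 38 on the other days. Pluripotent markers summed to 5458 to 6844 joint CPM on day 1, 9684 to 10238 on day 2 and 7845 to 20484 on day 3. Their sums were 8391 to 11036 on day 4 and 4691 to 8973 on day 5. From day 2 to day 3, 2 of the 12 pluripotent markers were higher and 3 lower, against 12% and 13.5% of all genes. Single genes of this list differed: Sox2 averaged 178 joint CPM on day 3, against 22.2 to 64.5 on the other days. Nanog went from 228 on day 2 to 151 on day 3, and Pou5f1 from 15.6 to 3.58. Primitive endoderm markers summed to 32.3 to 142 joint CPM on day 1 and 23.1 to 25.9 on day 5, with 5 of 7 tested lower and 0 higher (5 and 0 at an unadjusted p under 0.05 and with DESeq2). The part of these cell types in the course of the 10 genes was not tested.

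**Figure D4:**
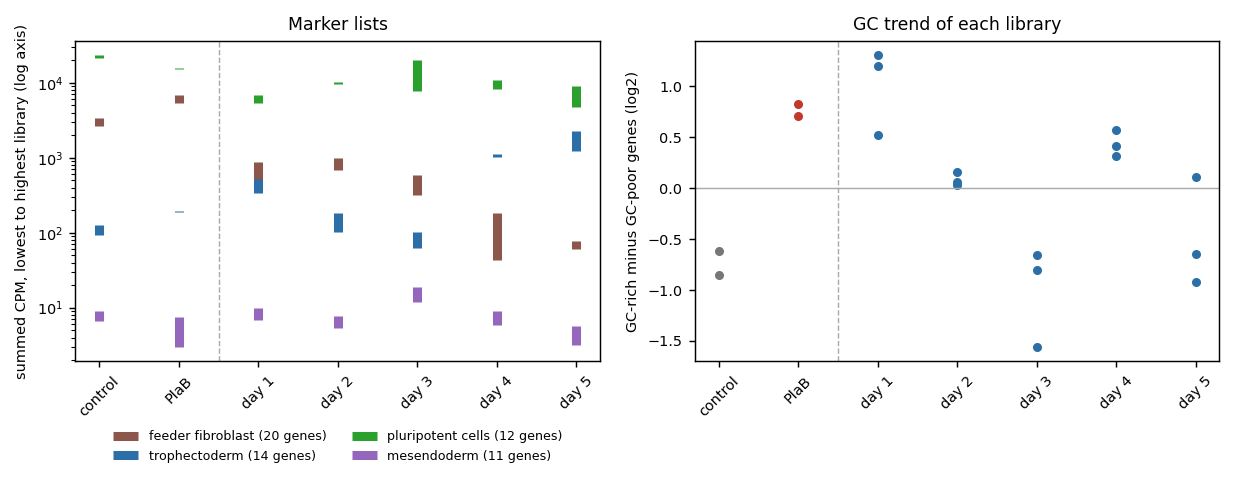
Left, range over the libraries of each group of the summed joint CPM (log axis) of 4 marker lists. Right, GC balance of each library, as the log2 deviation of GC-rich minus that of GC-poor genes within its table. Trophectoderm markers are lowest on day 3 and highest on day 5, feeder markers are highest in 2D PlaB libraries, and the GC balance is lowest in day 3 replicate 3.

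Some receptor genes of the pathway were higher on day 3, the day of the Lef1 peak. Of 16 tested receptor and R-spondin genes, 8 rose and 0 fell from day 2 to day 3 (10 and 0 at an unadjusted p under 0.05, 8 and 0 with DESeq2), the other 8 did not pass, and 12% of all genes were called higher. The median log2 fold change was 0.94, against 0.00 over all genes. From day 3 to day 4, 0 rose and 5 fell (0 and 8 unadjusted, 0 and 7 with DESeq2; median -0.82), with 12.3% of all genes called lower. Day 3 also had the lowest mean GC balance of the blastoid days (-1.01), with replicate 3 at -1.56. No values with GC correction or with a library left out are given for the receptor list in these steps. The part of the GC balance and of replicate 3 in them was not tested. From day 1 to day 5, 6 rose and 2 fell (median 0.52), with 25.5% of all genes called in each direction. Fzd5 rose by 1.72 ± 0.37, from a mean of 7.93 to 26.0 CPM (adjusted p = 0.000666), and Znrf3 by 1.18 ± 0.29 (adjusted p = 0.00213). Lgr6 fell by 3.54 ± 0.79 (adjusted p = 0.000983), to 5 counts on day 5, and Fzd1 by 2.07 ± 0.50 (adjusted p = 0.00177; -1.38 after GC correction). Lgr6 and Lgr5, which both encode R-spondin receptors, were thus called in opposite directions.

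Among 9 tested ligand and secretion genes, 1 rose and 3 fell between day 1 and day 5 (median -0.49), beside 25.5% of all genes in each direction. Porcn, the acyltransferase that makes Wnt proteins fit for secretion, fell by 2.66 ± 0.37, from 24.8 to 3.93 CPM (adjusted p = 8.51e-06; -1.78 after GC correction). Wnt5b fell by 2.50 ± 0.49 (-1.40 after GC correction and -3.41 without day 5 replicate 3). Wnt7b was called higher (1.59 ± 0.54, adjusted p = 0.0191; 2.62 after GC correction), which ended with total-count scaling (adjusted p = 0.0603) and without day 1 replicate 1 (0.0721), day 1 replicate 3 (0.0751) or day 5 replicate 3 (0.147). Wnt5a was called lower (-1.499 ± 0.58, adjusted p = 0.0361) with libraries that overlapped, and its call ended without day 1 replicate 1 (0.0682) or 2 (0.125) or day 5 replicate 2 (0.141) or 3 (0.13). None of 5 tested secreted inhibitors was called in either direction by edgeR or DESeq2, while 0 were higher and 1 was lower at an unadjusted p under 0.05. Another 8 of the 13 listed could not be tested. By counts alone, Notum had 24 on day 1 and 0 on day 5, and Dkk2 had 8 and 0.

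In the destruction complex and its regulators, 5 of 15 tested genes rose and 0 fell from day 1 to day 5 (5 and 0 at an unadjusted p under 0.05 and with DESeq2; median 0.36), beside 25.5% of all genes in each direction. They included Tnks, the gene of tankyrase, which marks Axin for degradation, at 1.43 ± 0.21 (32.5 to 87.3 CPM, adjusted p = 1.87e-05), the ubiquitin ligase gene Fbxw11 at 1.16 ± 0.22, the kinase gene Csnk1a1 at 0.93 ± 0.21 and Dvl3 at 1.04 ± 0.24 (1.72 after GC correction). Nuclear cofactors had 2 higher and 4 lower of 16 (median -0.21). The co-repressor gene Aes fell by 5.58 ± 0.47, from 37.0 to 0.78 CPM (adjusted p = 3.63e-08; -4.48 after GC correction). The β-catenin inhibitor genes Ctnnbip1 and Cby1 fell by 2.11 ± 0.30 and 2.50 ± 0.43 (-1.501 and -1.82 after GC correction), and Crebbp rose by 1.16 ± 0.23.

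Of 9 tested further Wnt targets, 0 rose and 3 fell from day 1 to day 5 (1 and 4 at an unadjusted p under 0.05, 0 and 4 with DESeq2; median -1.01), where 25.5% of all genes were called in each direction. Ccnd1 fell by 4.11 ± 0.30, from 99.7 to 5.86 CPM (adjusted p = 1.33e-08). Nkd2, a feedback inhibitor of Dishevelled, was called lower (-1.89 ± 0.65, adjusted p = 0.0204) on 47 against 9 counts, and Tnfrsf19 too (-0.71 ± 0.27, adjusted p = 0.0323). The Nkd2 call ended with GC correction (-1.48, adjusted p = 0.0586) and without day 1 replicate 1 or 2 or day 5 replicate 2 (adjusted p from 0.0502 to 0.0737), and that of Tnfrsf19 without day 1 replicate 2 or any 1 of the day 5 libraries (adjusted p from 0.0546 to 0.163). Among 9 genes listed as repressed by TCF7L1, 0 rose and 5 fell (0 and 6 unadjusted, 0 and 5 with DESeq2; median -0.96), with Nanog at -2.97 ± 0.24, Tcl1 at -1.85 ± 0.31, Prdm14 at -1.59 ± 0.43 and Nr0b1 at -1.15 ± 0.26 (-0.49 after GC correction, adjusted p = 0.0683). Junction genes had 4 higher and 2 lower of 8 (median 0.89): Cdh1 rose by 2.65 ± 0.33, from 71.6 to 450 CPM, Ctnnd1 by 2.10 ± 0.28, Afdn by 1.46 ± 0.17 and Ctnna1, the gene of α-catenin, by 1.26 ± 0.21.

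Day 1 blastoids were also set against PlaB-treated 2D cells, on a joint scale of all 19 libraries. Culture form, table and any batch cannot be told apart in this comparison, and its day 1 and PlaB libraries are those of the comparisons above. Of the 10 genes 6 were higher on day 1 and 0 were lower (6 and 0 at an unadjusted p under 0.05 and with DESeq2), against 21.9% higher and 17% lower of all 16304 genes tested (38.9% called). The median log2 fold change of the 10 genes was 0.90, against 0.14 over all genes. Axin2, Lgr5, Cdx1, Sp5 and Ascl2 were below the low-count filter in 2D culture. They were tested here in a fit with the blastoid libraries, where their counts are higher. Genes near 0 counts after PlaB could hardly be called lower, so the balance of calls and the median depend in part on the filter. With total-count scaling the median of all genes moved by 0.29, and the share of calls that were higher went from 56.3% to 71.1%.

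Cdx1 differed most. It had 0 and 2 counts in the PlaB libraries and 338, 155 and 195 counts on day 1, a ratio of 86.1 with a 95% counting interval of 23.7 to 712. Tcf7l1 stood at 2.16 and 2.77 joint CPM after PlaB and at 18.1, 19.5 and 12.3 on day 1, 2.74 ± 0.52 higher (adjusted p = 0.000225; 1.87 after GC correction). Axin2 stood at 0.86 and 1.98 joint CPM after PlaB and at 4.94, 8.23 and 4.44 on day 1. All day 1 libraries of these 3 genes lay above both PlaB libraries. Such separation of 2 from 3 libraries can also occur without a change, here and in the genes below. Its share over all genes is not given. Axin2 was 1.98 ± 0.60 higher (adjusted p = 0.0107). The Axin2 call ended without PlaB replicate 1 (1.57, adjusted p = 0.124), and the value was 2.74 without PlaB replicate 2.

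The other calls of this comparison were less stable. Ctnnb1 stood at 54.005 and 57.685 joint CPM after PlaB and at 87.7, 112 and 99.9 on day 1 (0.84 ± 0.28, adjusted p = 0.0211), and Tcf7 at 11.2 and 14.6 against 21.5, 26.6 and 20.8 (0.82 ± 0.29, adjusted p = 0.0272). Ascl2 stood at 2.16 and 4.35 joint CPM after PlaB and at 9.501, 10.6 and 5.41 on day 1 (1.35 ± 0.53, adjusted p = 0.0433). Libraries did not overlap in these 3 genes, but the calls of all 3 ended without PlaB replicate 1, without PlaB replicate 2 and without day 1 replicate 2 (adjusted p from 0.0559 to 0.281), and those of Tcf7 and Ascl2 with GC correction (0.54, adjusted p = 0.145, and 0.44, adjusted p = 0.51). The number of genes called higher was 2 without PlaB replicate 1, 3 without PlaB replicate 2 and 3 without day 1 replicate 2. Lef1 (0.02 ± 0.43, adjusted p = 0.979) and Tcf7l2 (0.29 ± 0.38, adjusted p = 0.57) were not called, nor was Sp5 (0.34 ± 0.82, adjusted p = 0.77), and the signs of Lef1 and Sp5 changed with GC correction (-0.21 and -0.68). Lgr5 had 1 count after PlaB and 8 on day 1, a ratio of 2.00 (0.268 to 88.9).

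Feeder markers differed strongly between these groups, at 5432 to 6955 summed joint CPM after PlaB and 507 to 888 on day 1, with 16 of 18 lower on day 1. Among the pathway genes lower on day 1 were Wnt5a (-4.05 ± 0.43, from 93.1 to 5.78 joint CPM), the secreted inhibitor gene Dkk3 (-4.29 ± 0.43) and the Frizzled gene Fzd7 (-3.22 ± 0.31). Wnt5b went the other way, with 1 count after PlaB and 125 on day 1. Of 17 tested receptor genes 0 were higher and 5 lower on day 1 (0 and 5 unadjusted and with DESeq2), and of 7 tested secreted inhibitors 0 and 4 (0 and 4 unadjusted and with DESeq2). Ligand and secretion genes had 3 higher and 3 lower of 12 tested, and the destruction complex 5 and 3 of 15. Nuclear cofactors had 5 and 1 of 16, and further Wnt targets 3 and 1 of 10. Genes listed as repressed by TCF7L1 had 4 and 0 of 9, and junction genes 1 and 3 of 8. Beside these, 21.9% of all genes were higher and 17% lower on day 1. Trophectoderm markers were higher on day 1 for 7 and lower for 0 of 12. Among other genes higher on day 1 were Porcn (3.21 ± 0.51, 2.48 after GC correction), Apc (1.89 ± 0.28), Axin1 (2.42 ± 0.48, 1.83 after GC correction), Aes (2.89 ± 0.48, 2.02 after GC correction) and Tnfrsf19 (2.00 ± 0.38). Tnks went the other way, at -1.43 to -0.80 with 1 library left out at a time. The part of the feeder cells in these differences was not tested.

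Over all 7 groups on the joint scale, the genes differed in where they were highest. Axin2 was highest on day 5 (mean 15.2 joint CPM), above the next group, day 3, without overlap, and lowest in the control (1.32) and PlaB groups (1.42), which overlapped. Lef1 and Tcf7 were highest on day 3 (25.6 and 33.5), without overlap with the next group. Tcf7l2 was highest in control cells (29.1), day 5 (28.2) and day 3 (24.5), which overlapped in that order, and lowest after PlaB (10.4). Tcf7l1 and Cdx1 were highest on day 1 (16.7 and 35.4), Sp5 on day 3 (4.42), and Ctnnb1 on day 5 (130), where it overlapped with day 4 (114). Lgr5 and Ascl2 were highest on day 4 (5.31 and 12.5), and both overlapped with day 5 (4.82 and 11.97). Sp5 was at 0 and Cdx1 at 0.127 in control cells, and Lgr5 overlapped between the control, PlaB and day 1 groups at means of 0.262, 0.198 and 0.434.

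The genes most alike to each of the 10 over the blastoid libraries were taken by Pearson correlation of log2 CPM over 15 libraries among 7396 genes. Tcf7l2 was most like Qk (0.976) and Tsc22d2 (0.965), and Lef1 most like Zik1 (0.963), Mcc (0.954) and Fastkd5 (0.950). The list was led by Ift43 for Ctnnb1 (0.953), Cdkn1a for Tcf7l1 (0.947), Ube2d1 for Cdx1 (0.945), Abhd17c for Tcf7 (0.941) and Elf3 for Ascl2 (0.937). For Axin2 it was Ctnnd1 (0.917), the junction gene described above, followed by Scaf4 (0.901), for Lgr5 Copg2 (0.916), and for the low gene Sp5 Hpf1 (0.866). Among the 10 genes themselves the highest values were 0.794 for Ctnnb1 with Ascl2, 0.787 for Tcf7l1 with Ctnnb1 and 0.741 for Tcf7l1 with Ascl2. The value for Axin2 with Lef1 was 0.04. These correlations describe 15 libraries that share days, depth and GC balance.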

How the data were processed

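PolyA RNA libraries made with Smart-seq2 were measured in 4 samples of 2D culture and 15 blastoid samples. The authors deposited raw counts per gene symbol in 1 table for each set, and per the submitters' processing notes STAR 2.7.10b, HTSeq 0.13.5 and mm10 were used. Neither the annotation release nor the strand setting is given in the sources used here. Samples were grouped by their titles, which equal the column names.

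Counts were tested with edgeR 4.0.16 (R 4.3.3; TMM scaling, filterByExpr at min.count 10 and min.total.count 15, robust quasi-likelihood test, Benjamini-Hochberg adjustment, threshold 0.05). Fits used the 4 libraries of 2D culture, the 15 of blastoids, and all 19 for day 1 against 2D PlaB. Gene positions, exon lengths and GC content came from GENCODE M21, and promoters from RefSeq on GRCm38.p6. The alternatives were RLE size factors, total counts, no filter, DESeq2 1.42.0, a replicate block, a GC correction (lowess span 0.3), both together, fits of only the groups compared, and leaving out each library. The fits were tested on simulated data, from which genes of low mean count were left out. In PlaB against control, 68% of 2-fold and 100% of 4-fold changes were recovered, and 5.08% of calls were false. In day 5 against day 1 these were 35%, 97% and 5.71%. A gene that did not pass may therefore still have changed by 2-fold. Levels per library are CPM, and the number of counts limits the precision of low genes.

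The genes and lists were chosen with earlier results of these data known. Named genes are the 10 members and, from each pathway list, up to 4 genes with the smallest adjusted p under 0.05 in a comparison. Most alike genes were taken among tested genes with a mean of at least 10 CPM, on log2 CPM with a prior count of 2, leaving out numbered gene models.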

Additional observations from a re-analysis of the deposited data

How the results depend on the processing

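The replicate numbers did not pair the samples: same-numbered libraries had a correlation of deviations of -0.02 in 2D, 4 of 30 same-number pairs of blastoid libraries were over 0.1, and 2 of 15 libraries were closest to their own number. The replicate block alone changed the call or direction of none of the 57 member values, and with it 162 genes were higher from day 1 to day 2, against 255 without it. Of the 10 genes, those lower after PlaB numbered 2, but 4 with GC correction (with the replicate block too) and 1 with DESeq2. From day 1 to day 5, 1 gene was lower, but 3 with total counts, 2 with no filter and 2 in the fit of only these groups, and 3 were higher, but 5 with GC correction (with the block too). The direction turned for Sp5 with total counts (-0.11), and with GC correction for Lef1 (0.11; 0.11 with the block), Tcf7 (0.0624; 0.0488) and Tcf7l1 (0.41; 0.41). From day 1 to day 2, 1 gene was higher, but 0 with total counts and 0 with no filter, and 3 were lower, but 0 with GC correction (with the block too). Among all genes in that step, 156 were higher with total counts, 141 with block and GC correction, 417 with DESeq2 and 731 in the fit of only these groups, and 797 were lower, but 1373 with total counts, 393 with GC correction, 279 with block and GC correction and 1305 in the fit of only these groups. From day 2 to day 3, 3 of the 10 were higher, but 5 with GC correction (with the block too), and 1 was lower, but 0 with block and GC correction and 0 in the fit of only these groups. Among all genes 2045 were lower, but 1236 with block and GC correction and 1294 in the fit of only these groups, which gave 1185 higher against 1821. From day 3 to day 4, 4 of the 10 were higher, but 2 with GC correction (with the block too), and 3 were lower, but 6 with GC correction. Among all genes 2361 were higher, but 1420 with GC correction and 1208 with block and GC correction, and 1863 were lower, but 1114 with block and GC correction and 1074 in the fit of only these groups. From day 4 to day 5, 2 of the 10 were higher, but 1 with total counts and 1 with no filter, and 2133 of all genes, but 1361 with total counts. For day 1 against 2D PlaB the sign of Lef1 turned with RLE (-0.0335), GC correction (-0.21), block and GC correction (-0.12), DESeq2 (-0.0391) and only the groups compared (-0.12), and that of Sp5 with GC correction (-0.68) and block and GC correction (-0.52). Leaving out 1 library at a time, these values ranged from -0.53 to 1.00 for Lef1, -0.40 to 1.99 for Sp5 and -0.22 to 4.34 for Lgr5, and Lef1 from -0.37 to 0.13 between day 5 and day 1. Counts of all genes higher and lower ranged from 2168 to 3958 and 1643 to 3113 for day 1 against PlaB, 60 to 696 and 366 to 1254 for day 2 against day 1, 739 to 2202 and 1144 to 2467 for day 3 against day 2, and 1405 to 2677 and 1455 to 2684 for day 5 against day 4, with 956 to 2086 lower for day 4 against day 3. Of the 10 genes, 2 to 6 were higher in day 1 against PlaB, 0 to 1 in day 2 against day 1 and 1 to 2 in day 5 against day 4. Those lower were 1 to 2 after PlaB, 1 to 3 in day 2 against day 1, 0 to 1 in day 3 against day 2, 1 to 4 in day 4 against day 3 and 1 to 2 in day 5 against day 1. The cause of these changes was not tested. Depth limits the target genes in 2D culture, Lgr5 up to day 3 and Sp5 throughout.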
